A study of Mus musculus with 45 samples.

Results

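The comparison described here is that of mouse nucleus accumbens (NAC) 7 d after the last chamber session, between mice given chronic intermittent ethanol vapor (CIE) and air-exposed mice (Ctrl). Its members are the 12 of 45 arrays that the sample labels place at 7 d, 6 CIE and 6 Ctrl, each with RNA of 1 mouse. All were adult male C57BL/6J mice that went through 4 cycles of 4 days in inhalation chambers, 16 h per day, with 7 days without exposure between cycles. CIE mice were injected with 1.6 g/kg ethanol and 1 mmol/kg pyrazole before vapor at 10 to 13 mg/l, and Ctrl mice with saline and 1 mmol/kg pyrazole before air. Pyrazole inhibits alcohol dehydrogenase, and both groups carried it. RNA came from dissected tissue, so a change in the share of a cell type and a change of RNA per cell cannot be told apart. Nothing in the labels says that mice shared a litter or cage.

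The NAC is the ventral part of the striatum and receives dopamine from the midbrain. Most of its neurons are medium spiny neurons, inhibitory cells that carry either dopamine receptor D1 with substance P and dynorphin, or D2 with enkephalin. Acute withdrawal from ethanol raises circulating glucocorticoids, which act through a nuclear receptor on genes such as Fkbp5 and Zbtb16. The comparison at 7 d asked which differences between CIE and Ctrl were measurable in late abstinence.

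Values are log2 expression of 45037 probesets (groups of short probes against 1 transcript), and changes are differences of group means, CIE minus Ctrl, in log2 units with the standard error (SE) that limma gave. The number of arrays limits the precision. Array medians ran from 6.94 to 6.96 over the series, and the correlation between pairs of 7 d arrays from 0.982 to 0.998. The defining markers of medium spiny neurons were well detected on the 12 arrays, with a mean of 11.42 to 11.99. Ctrl replicate 62 and CIE replicate 13 stood apart: their probesets lay a median of 0.139 and 0.136 from the group mean, against 0.0631 to 0.0969 on the other 10 arrays. The first principal component of the 12 arrays, with 50.9% of their variance, separated these arrays from the rest and not CIE from Ctrl. The results below are given without this pair where its removal changes them.

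No gene passed the test of CIE against Ctrl at 7 d. Of 45037 probesets, 0 had an adjusted p of 0.01 or less (0% called) and 0 one of 0.05 or less by limma with Benjamini-Hochberg adjustment, and the smallest adjusted p was 1.00. Without adjustment, 1056 probesets had a p under 0.05, 2.34% of all, 482 with CIE higher (1.07%) and 574 with CIE lower (1.27%). The same fit called 717 probesets at 0 h (1.59%), 28 at 8 h (0.0622%) and 0 at 72 h (limma, smallest adjusted p 0.673). The 8 h groups held 5 CIE and 5 Ctrl arrays, and the 72 h groups 5 CIE and 6 Ctrl arrays. Differences at 7 d were also small in size. The median size was 0.05 at 7 d and 0.07 at 0 h, and the size at the 99th percentile was 0.26 at 7 d against 0.60 at 0 h, 0.42 at 8 h and 0.66 at 72 h. A change over 1 log2 unit was reached by 0 probesets at 7 d and by 38, 42 and 87 at 0 h, 8 h and 72 h. The spread within groups was similar at 7 d, with a median SD of 0.13 in Ctrl and 0.13 in CIE, beside 0.16 and 0.13 at 0 h.

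**Figure D1:**
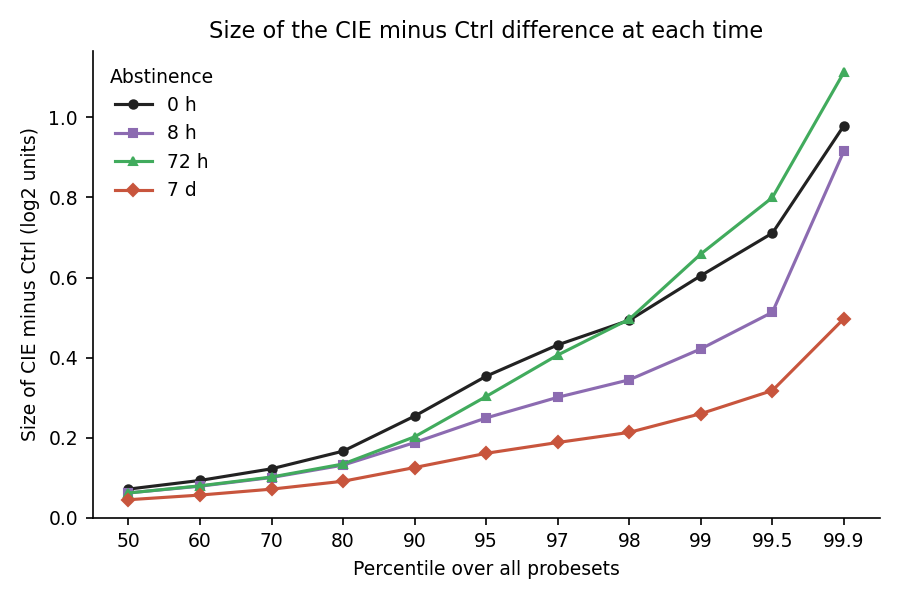
Size of the CIE minus Ctrl difference (y axis, log2 units, sign ignored) at percentiles of all 45037 probesets (x axis, unevenly spaced), 1 line per time of abstinence. The 7 d line is the lowest at each percentile drawn, with 0.26 at the 99th percentile against 0.60 at 0 h.

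The 12 arrays set limits on what could have gone unseen. The 95% interval of the 7 d change lay wholly within 1.5-fold in either direction for 96.6% of probesets and within 2-fold for 99.6%. The interval reached a 2-fold change for 190 probesets. At the median SE of 0.08, a probeset that moved alone would have needed a change of 0.48, or 1.40-fold, to pass at an adjusted p of 0.01. At the 10th and 90th percentiles of SE it would have needed 0.32 and 0.92. The size needed is smaller where many probesets move together, because of the adjustment.

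The genes that had changed at 0 h or 8 h were near Ctrl levels at 7 d. Of the 717 probesets called at 0 h, the 7 d interval left out a change as large as at 0 h for 717, and a change of 50% of it or more for 571 (79.6%). For the 28 called at 8 h these counts were 28 and 26 (92.9%). The early values chose these probesets, so their early changes are likely too large, and the error of those changes was not counted. The direct test of the difference between times passed for 89 of the 717 and 11 of the 28. The median 7 d change, counted in the direction of the 0 h change, was -0.02 (quartiles -0.06 and 0.02), where the median size at 0 h was 0.38. Only 270 of the 717 (37.7%) had the same sign at 7 d as at 0 h, beside 50.0% of all probesets. Of the 28 called at 8 h, 9 (32.1%) kept their sign, and without Ctrl replicate 62 the share was 52.5%, of a new set of calls. The share at 0 h ran from 28.3% to 47.6% when any 1 of the 12 arrays was left out. Arrays at different times came from different mice, so that these shares do not rest on common Ctrl arrays.

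**Figure D2:**
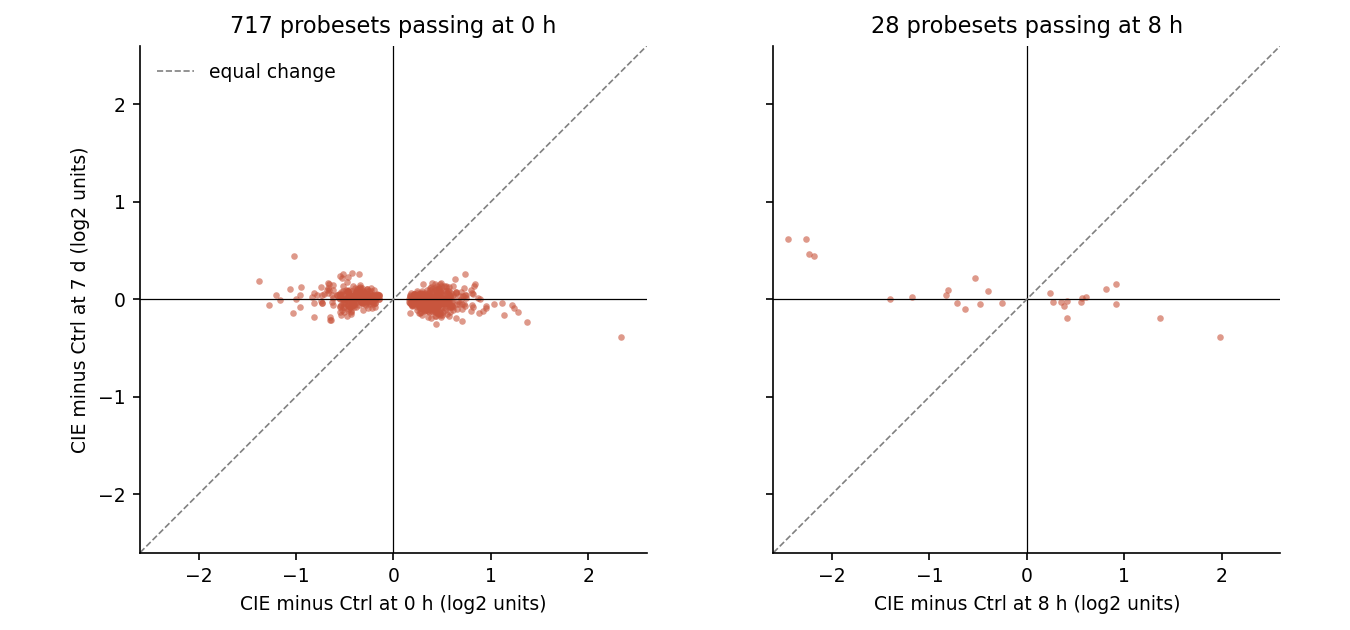
CIE minus Ctrl difference at 7 d (y axis) against that at 0 h (left) and 8 h (right), in log2 units, for the probesets that passed at the early time; each point is 1 probeset and the dashed line marks an equal change at both times. The points lie along the horizontal axis and not along the dashed line, with 7 d changes of at most 0.62.

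A total of 30 genes with known early changes were followed at 7 d. For 30 of 30 the 7 d interval left out the larger of the changes at 0 h and 8 h. Those early changes are likely too large, because the genes were chosen with them known. At 7 d, 0 of the 30 genes had an unadjusted p under 0.05, and the 7 d changes ran from -0.39 to 0.18. Each is read at its probeset of smallest p at 0 h or 8 h, which for H2-D1 is a dim one (change 0.15). At the brightest H2-D1 probeset the 7 d change was 0.67, with an unadjusted limma p of 0.0376. The direct test of the 7 d change against the early change passed for 11 of them at 0 h and 2 at 8 h, 12 genes in all. With hybridization sets, described below with Alas2, as a block, 8 of these 13 differences missed the threshold. Over all probesets the test called 90 against 0 h (0.200%) and 11 against 8 h (0.0244%), which became 16 and 7 with the sets as a block, and 0 against 72 h (smallest adjusted p 0.539, 1659 with an unadjusted p under 0.05).

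Among glucocorticoid-responsive genes, Plin4 (chromosome 17, 56100587-56109948), which coats lipid droplets, was the gene with the largest early rise. On the Ctrl arrays at 7 d it ran from 6.17 through a median of 7.36 to 7.90, and on the CIE arrays from 6.54 through 6.99 to 7.11. The groups overlapped, with a change of -0.39 (SE 0.34, n = 6 and 6) after 2.33 at 0 h and 1.98 at 8 h. The 7 d change minus the 0 h change was -2.72 (SE 0.49; limma, adjusted p = 0.00282). Zbtb16, a zinc finger transcription factor (chromosome 9, 48651797-48836225), ran from 8.39 to 8.99 in Ctrl and from 8.00 to 8.66 in CIE, with medians of 8.52 and 8.53. Its change was -0.16 (SE 0.17) after 1.13 at 0 h, a difference of -1.29 (limma, adjusted p = 0.00358). Without CIE replicate 13 and Ctrl replicate 62 that difference missed the threshold (limma, adjusted p = 0.0130), as did that of Hes5 against 0 h (limma, adjusted p = 0.0108). Map3k6 and Hif3a, a kinase and a hypoxia-inducible factor, changed by 0.00 and -0.07 at 7 d after 0.70 and 0.57. Fkbp5, whose product binds Hsp90 beside that receptor, had a change of -0.08 (SE 0.10) after 0.59, which missed the threshold for the difference (limma, adjusted p = 0.0142). Over the 22 measured members of the glucocorticoid list the mean change was -0.06 at 7 d, against 0.52 at 0 h and 0.46 at 8 h.

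Genes that had fallen early were also near Ctrl. Fcrls, a microglial Fc receptor-like gene (chromosome 3, 87250736-87263765), ran from 9.19 through 9.26 to 9.47 in Ctrl and from 9.22 through 9.31 to 9.49 in CIE. The groups overlapped almost wholly, with a change of 0.04 (SE 0.11) after -1.21 at 0 h (limma, adjusted p of the difference 9.71e-06). P2ry12, a purine receptor of resting microglia, changed by 0.18 (SE 0.09) at 7 d after -0.48 at 0 h (limma, adjusted p of the difference 0.00559). That call was lost without Ctrl replicate 62, 77 or 80 or CIE replicate 37 or 65, with adjusted p up to 0.0138. Hes5, a Notch target that keeps neural progenitors from becoming neurons, ran from 8.91 through 8.97 to 9.16 in Ctrl and from 8.65 to 9.26 in CIE. Its change was 0.00 (SE 0.13) after -0.996 at 0 h and -1.40 at 8 h, and both differences passed (limma, adjusted p = 0.00286 and 9.05e-05). Srsf6, a splicing factor, changed by 0.05 (SE 0.05) after -0.53, a difference of 0.58 (limma, adjusted p = 9.71e-06). The immediate early genes Arc and Fos, which report recent neuronal activity, changed by 0.00 (SE 0.18) and 0.11 (SE 0.21) after -1.16 and -1.06. Their differences missed the threshold (limma, adjusted p = 0.0148 and 0.0459).

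Opposite signs early and late were common among the probesets whose change differed between times. They were seen in 80 of the 90 called against 0 h and in 11 of the 11 called against 8 h. A test of the difference favours such probesets, and the median 7 d size over those 90 was only 0.07. Sox21, a transcription factor of neural progenitors, changed by -0.53 at 0 h and at 8 h and by 0.21 (SE 0.08) at 7 d, where Ctrl arrays ran from 7.44 to 7.96 and CIE arrays from 7.68 to 8.06. The 7 d change differed from both early ones (limma, adjusted p = 0.000823 against 0 h and 0.00262 against 8 h), but did not pass by itself. Osgin1, an oxidative stress-induced growth inhibitor, changed by 0.41 at 8 h and by -0.19 (SE 0.06) at 7 d (limma, adjusted p of the difference 0.000801). Of the 734 probesets called at 0 h or 8 h, 22 had an interval at 7 d that left out 0, or 3.00%, near the 2.34% of all probesets. Among the 717 called at 0 h, 17 of these had the opposite sign at 7 d and 2 the same. Those 2 were Tmem177 (0.30 at 0 h and 0.15 at 7 d) and Dnaja2, a co-chaperone (-0.22 and -0.09), chosen after their values were seen.

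Among the 11 probesets called against 8 h, the largest reversals lay in 4 that the array annotation pairs with several symbols each. These are not named for that reason. Their changes were -2.45 to -2.18 at 8 h and 0.44 to 0.62 at 7 d, and the differences passed with adjusted p of 9.05e-05 to 0.000151 by limma. At the one with the largest 7 d change, Ctrl arrays at 7 d ran from 11.77 through 12.15 to 12.42 and CIE arrays from 12.54 through 12.71 to 13.01. The groups did not overlap at any of the 4, beside 0.151% of all probesets, although their choice had used these values. Their adjusted p at 7 d alone was 1.00. Alas2, the first enzyme of heme synthesis in red cell precursors, changed by -0.69 at 8 h and by 0.30 (SE 0.16) at 7 d, higher in CIE in 6 of 6 hybridization sets, and neither change passed. A hybridization set here is a group of arrays, inferred from shared values, that holds 1 CIE and 1 Ctrl array at 7 d. The other 7 measured blood cell genes changed by -0.12 to 0.30. Blood content of the tissue was not tested.

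The genes with the smallest p at 7 d are given as the upper end of what was measured, not as changed genes. Their adjusted p was 1.00 by limma for each of the 8 with CIE higher and the 8 with CIE lower. The groups did not overlap for 4 of these genes, beside 0.151% of all probesets, which the choice by p makes likely. Gabrg3, the gamma 3 subunit of the GABA-A receptor (chromosome 7, 56716463-57387215), had the smallest p. The probeset of smallest p ran from 7.18 through 8.39 to 8.54 in Ctrl and from 7.31 through 7.52 to 7.68 in CIE. All 6 CIE arrays lay below 5 of the 6 Ctrl arrays, and the exception was Ctrl replicate 62. The change was -0.70 (SE 0.18, 95% interval -1.05 to -0.34), or 0.617-fold. Without Ctrl replicate 62 it was -0.90 (limma, adjusted p = 0.0262), without this array and CIE replicate 13 it was -0.93 (adjusted p = 0.0356), and with arrays weighted by their quality it was -0.86 and passed (adjusted p = 0.00501). The same probeset changed by -0.61 at 0 h, -0.29 at 8 h and -0.61 at 72 h, none of which passed. The other 3 Gabrg3 probesets had smaller differences, with 7 d changes of -0.30, 0.03 and 0.05.

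Cxcr6, a chemokine receptor of T cells and natural killer cells (chromosome 9, 123806477-123811754), had the smallest p of the genes higher in CIE. It ran from 4.76 through 4.86 to 4.93 in Ctrl and from 4.94 through 5.24 to 5.49 in CIE. The groups did not overlap, and the change was 0.37 (SE 0.10), or 1.29-fold. Mtcp1 ran from 5.08 to 5.38 in Ctrl and from 5.38 to 5.71 in CIE, also without overlap, with a change of 0.34 (SE 0.09). The others higher in CIE were Wdfy1, an adaptor of Toll-like receptor signalling, Ppfibp1, Ccnt1, the cyclin of the transcription elongation factor P-TEFb, Cyp51, Cpne3 and Pde7a, a cAMP phosphodiesterase, by 0.13 to 0.25. For Cyp51, the sterol demethylase of cholesterol synthesis, 1 probeset changed by 0.23 and the other 2 by 0.01 and 0.00. Other probesets of the remaining genes were not compared, with 2 in all for Cxcr6, 4 for Mtcp1, 5 for Wdfy1 and 7 for Pde7a. Cxcr6, Mtcp1, Wdfy1, Ppfibp1 and Cyp51 were dim, below the array medians of 6.94 to 6.96.

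Of the genes lower in CIE, Il23a, a cytokine subunit, ran from 4.32 through 4.51 to 4.73 in Ctrl and from 4.08 through 4.22 to 4.29 in CIE, without overlap, and changed by -0.31 (SE 0.09). Rab14, a small GTPase of endosomal traffic (chromosome 2, 35180205-35201120), was far better measured. It ran from 11.49 through 11.50 to 11.57 in Ctrl and from 11.35 through 11.41 to 11.43 in CIE. The groups did not overlap, yet the change was only -0.12 (SE 0.03), or 0.921-fold. Tac4, which encodes tachykinin peptides, 1810053B23Rik, Gm39954, Dexi and Wwtr1, a Hippo pathway co-activator, changed by -0.35 to -0.14. Dexi had changed by 0.17 at 0 h, and its 7 d change differed from that (limma, adjusted p = 0.00314). Il23a, Tac4, 1810053B23Rik, Gm39954 and Wwtr1 were dim, below the array medians of 6.94 to 6.96. Rab14 has 7 probesets, and the others were not compared.

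**Figure D3:**
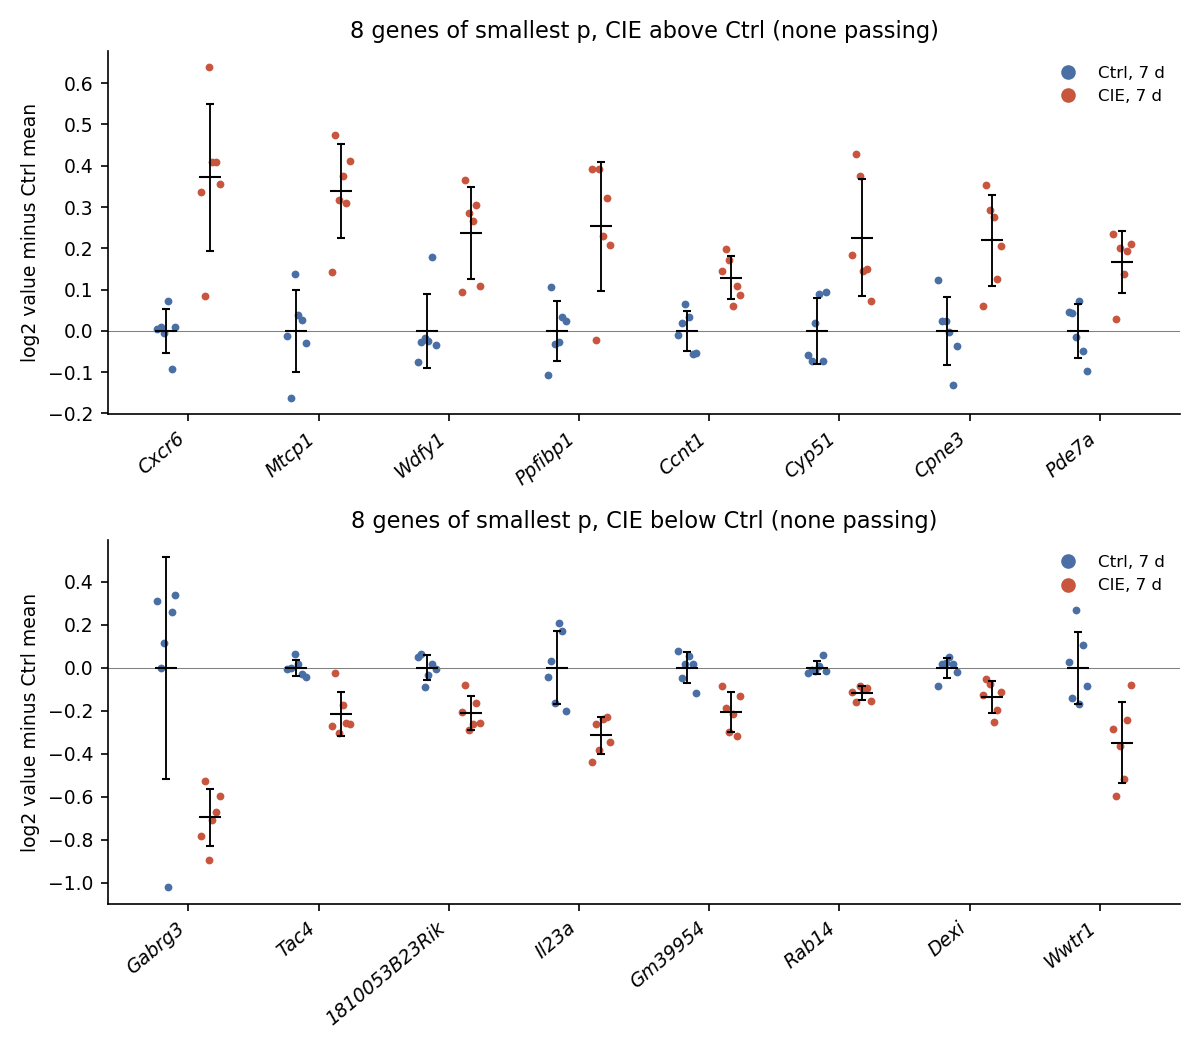
Log2 values of the 8 genes with the smallest p above Ctrl (top) and below Ctrl (bottom) at 7 d, minus the Ctrl mean of that gene; each point is 1 array, with blue for Ctrl and red for CIE, and black bars give the mean ± SD of 6 arrays. The groups do not overlap for Cxcr6, Mtcp1, Il23a and Rab14, beside 0.151% of all probesets, and these genes were chosen by their p. The low Ctrl point at Gabrg3 is replicate 62.

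A total of 35 gene lists with 633 measured genes were described at 7 d, each gene at its brightest probeset. Of the 633 genes, 6 had an unadjusted p under 0.05 (0.948%), beside 1.97% of all 18193 genes, and 0 passed. The list medians ran from -0.11 to 0.30, against 0.00 over all genes, of which 48.2% lay above 0. The mean change of 27 of the 35 lists was within 0.05 of 0.

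The list farthest from 0 was that of major histocompatibility complex (MHC) class I genes and the genes that load peptides onto these molecules. Class I molecules sit on the cell surface, where they show peptides to T cells, and need beta 2-microglobulin, the product of B2m. Of the 11 measured members, 11 lay above 0, with a median change of 0.30, and 0 passed. H2-D1 (chromosome 17, 35263094-35267497) ran from 10.04 through 10.24 to 10.35 in Ctrl and from 10.35 through 10.92 to 11.47 in CIE. H2-K1 (chromosome 17, 33996012-34000619) ran from 9.86 through 10.02 to 10.23 in Ctrl and from 10.16 through 10.49 to 10.97 in CIE. These are classical class I heavy chains, and for both 5 of 6 CIE arrays lay above the highest Ctrl array. B2m (chromosome 2, 122147687-122153082) ran from 11.60 through 11.64 to 11.84 in Ctrl and from 11.74 through 12.11 to 12.47 in CIE, with the same 5 of 6 count. The changes were 0.67 (SE 0.31) for H2-D1, 0.52 (SE 0.31) for H2-K1 and 0.45 (SE 0.20) for B2m, with an adjusted p of 1.00 for each by limma.

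Other members behaved alike but to a smaller degree. Psmb9 and Psmb8, subunits of the immunoproteasome that cuts the peptides, changed by 0.34 and 0.30. Nlrc5, the transcriptional activator of class I genes, changed by 0.39, and Tap1, which pumps peptides into the endoplasmic reticulum, by 0.26. Tap2, Tapbp and Psmb10 changed by 0.05 to 0.07. The mean of the 11 genes was 8.07 to 8.32 on the Ctrl arrays and 8.22 to 8.74 on the CIE arrays. The difference within hybridization sets was above 0 in 6 of 6 sets, from 0.14 to 0.61. The list mean was 0.24 without CIE replicate 27, the highest array, and 0.35 without CIE replicate 13 and Ctrl replicate 62. At the other times, measured in other mice, the list mean change was 0.45 at 0 h, 0.85 at 8 h and 0.18 at 72 h. In the fit over all 45 arrays, 2 of the 11 members had an unadjusted p under 0.05, beside 1.97% of all genes. When only the 12 arrays of 7 d set the spread, 7 of the 11 did, beside 2.17% of all genes, and 0 passed. The members moved together across arrays and are not independent of each other.

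Many H2-D1 and H2-K1 probesets can bind transcripts of other class I genes, so that the gene behind each is uncertain. Of 9 H2-D1 probesets, those with changes of 0.55 to 0.76 had also changed most at 8 h, and the other 5 ran from -0.14 to 0.15. Of 4 H2-K1 probesets, 3 changed by 0.43 to 0.65 and the fourth by -0.06. Both B2m probesets were above 0, at 0.39 and 0.45.

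Promoters of the 3 genes with the largest class I values are shown because the 2 heavy chains and B2m match different marked patterns. They come from RefSeq, assembly GRCm38.p6, and are given 5′ to 3′ on the strand of the gene, upstream of a RefSeq transcript start. The H2-K1 stretch lies upstream of both starts that RefSeq gives windows for (34000347 and 34000333), but within the span of the gene given above, which reaches farther. Capitals mark GGGNNTTCC, an NF-kB type element, and GAANNGAAA or GAAANNGAA, interferon response type elements that can overlap each other, searched on both strands.
H2-K1, chr17:34000368-34000467, minus strand: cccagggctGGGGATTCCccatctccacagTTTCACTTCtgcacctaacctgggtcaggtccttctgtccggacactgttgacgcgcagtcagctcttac
H2-D1, chr17:35262904-35263003, plus strand: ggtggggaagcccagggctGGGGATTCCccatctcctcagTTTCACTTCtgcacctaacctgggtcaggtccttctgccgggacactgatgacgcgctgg
B2m, chr2:122147512-122147611, plus strand: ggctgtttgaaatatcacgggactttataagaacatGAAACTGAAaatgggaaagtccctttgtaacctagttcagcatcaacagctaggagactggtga
H2-K1 and H2-D1 hold the first element and, on the reverse strand, GAANNGAAA, while B2m holds GAAANNGAA. Longer NF-kB type sites were not searched for, so the missing match in B2m does not mean that such a site is absent. In windows of 250 bases before the start, GGGNNTTCC was found in 4.98% of all 32851 promoters, GAANNGAAA in 6.31% and GAAANNGAA in 7.13%. Of 9 members with a window, 2 held the first, the same number the second and the same number the third. Matches are letters only, and nothing bound was measured.

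Interferon-stimulated genes lay above 0 in 15 of 17 cases, with a median change of 0.18 and 0 passing. Ifit3, an antiviral protein, ran from 8.06 through 8.20 to 8.27 in Ctrl and from 8.21 through 8.56 to 8.86 in CIE, higher in 6 of 6 sets, with a change of 0.37 (SE 0.24). Ifit1 changed by 0.46 (SE 0.28), Usp18, which removes the ubiquitin-like protein ISG15, by 0.44 (SE 0.27) and Parp14 by 0.31 (SE 0.18). The list mean ran from 6.68 to 7.04 in Ctrl and from 6.93 to 7.25 in CIE, and only CIE replicate 27 lay above all Ctrl arrays. Unlike class I genes, this list had a mean change of 0.01 at 0 h, and it stood at 0.34 at 8 h and 0.09 at 72 h. With the 12 arrays alone, 10 of 17 had an unadjusted p under 0.05, beside the same 2.17%, where the fit over all 45 arrays gave 0 of 17, and 0 passed. Cytokine, Toll-like receptor and NF-kB genes did not move with them, at a median of 0.01. Microglia markers lay above 0 in 18 of 19 cases, but by a median of only 0.05.

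**Figure D4:**
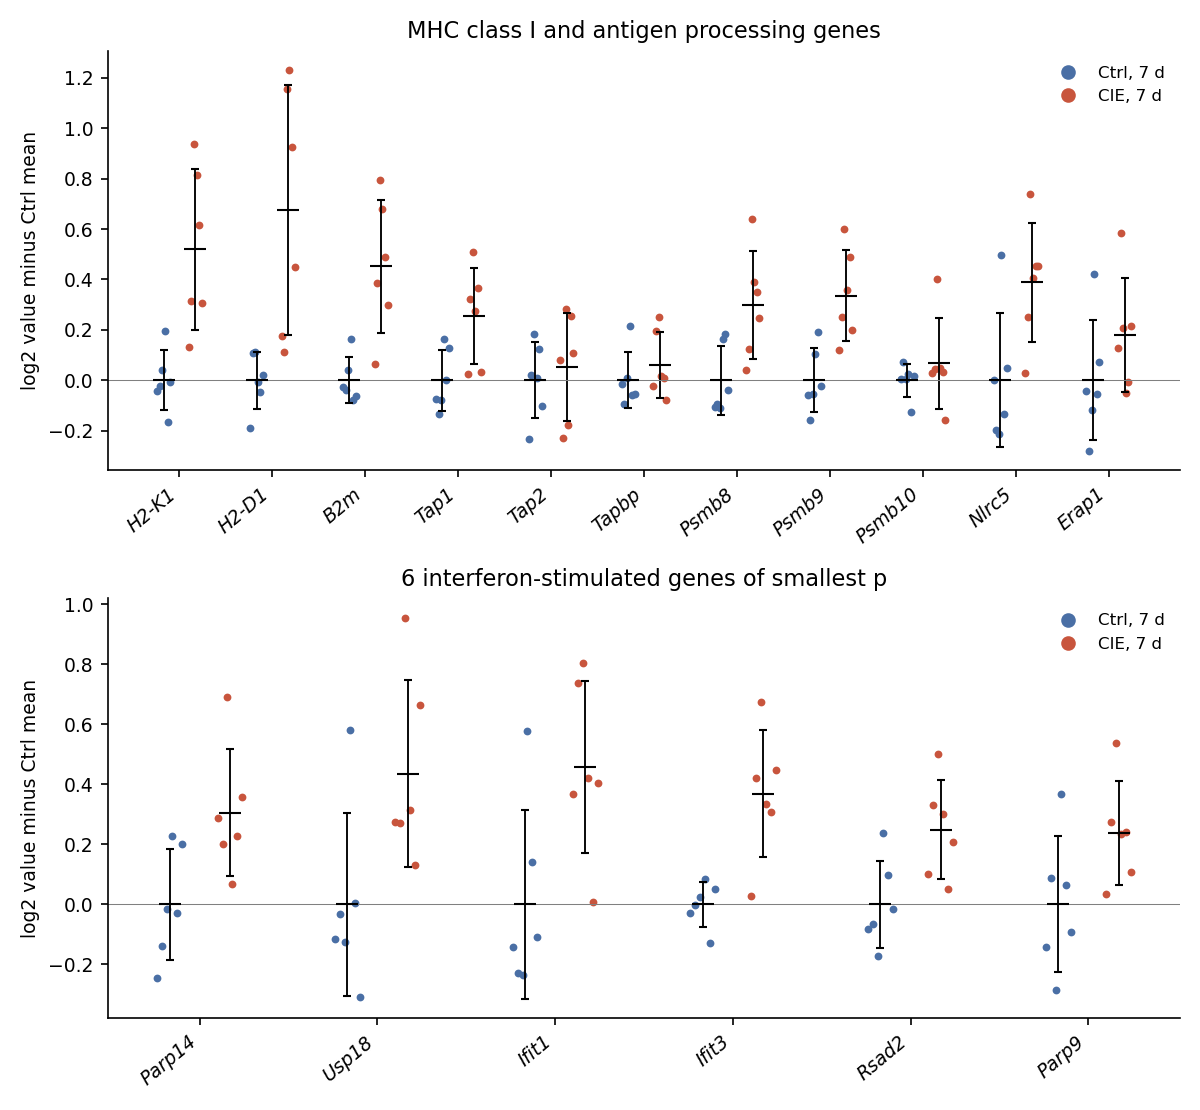
Log2 values at 7 d of the 11 class I and antigen processing genes (top) and of the 6 interferon-stimulated genes with the smallest p (bottom), minus the Ctrl mean of that gene; points are arrays (blue Ctrl, red CIE) and black bars the mean ± SD of 6 arrays. For H2-K1, H2-D1 and B2m, 5 of 6 CIE points lie above all Ctrl points, and no gene passed.

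Markers of medium spiny neurons were lower in CIE in 22 of 23 cases, by a median of 0.11 log2 units, with 0 passing. Tac1, the precursor of substance P, ran from 13.01 through 13.10 to 13.20 in Ctrl and from 12.77 through 13.05 to 13.08 in CIE. Its change was -0.11 (SE 0.05), lower in 6 of 6 sets. Pde10a, a phosphodiesterase abundant in these neurons, changed by -0.16 (SE 0.08), also lower in 6 of 6 sets, while its other 4 probesets changed by -0.33 to -0.04. The dopamine receptor Drd2 changed by -0.21 (SE 0.16), Drd1 by -0.05 (SE 0.09) and Penk, the enkephalin precursor, by -0.10 (SE 0.08). The mean of the list ran from 11.56 to 11.99 in Ctrl and from 11.42 to 11.87 in CIE, so that the groups overlapped, and was lower in CIE in 4 of 6 sets. The list mean change was -0.12 at 7 d. At the other times, measured in other mice, it was -0.22 at 0 h, -0.06 at 8 h and 0.05 at 72 h.

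Markers of cortical pyramidal neurons, which the NAC lacks and neighbouring cortex holds, varied far more between mice. Their list mean ran from 7.75 through 8.73 to 8.97 in Ctrl and from 7.62 through 8.99 to 9.29 in CIE. Slc17a7, the vesicular glutamate transporter of cortical neurons, ran from 5.52 to 8.22 in Ctrl and from 4.74 to 8.91 in CIE. Of the 13 markers, 11 lay above 0 in CIE, with a mean change of 0.12 that became -0.06 without Ctrl replicate 77 and 0.34 without CIE replicate 13. Across the 12 arrays, with the group means removed, the list means of spiny and cortical markers correlated at r = -0.71, a description over arrays of 1 dissection each. Cortical tissue in the dissection was not tested as a source of the lower spiny neuron values.

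Genes of dopamine signalling and the circadian clock followed the same direction as the spiny neuron markers. Drd2 is in both the dopamine and the spiny neuron list, so these lists are not independent. Of 14 dopamine genes, 11 lay below 0, at a median of -0.07, and 3 above, with Slc18a2, the vesicular monoamine transporter, at 0.42 (SE 0.24). Of 17 clock genes, 14 lay below 0, at a median of -0.06. Dbp, an output transcription factor of the clock, ran from 12.24 through 12.35 to 12.47 in Ctrl and from 12.03 through 12.18 to 12.43 in CIE, with a change of -0.17 (SE 0.08). Per1, Per2 and Cry1 of the negative limb changed by -0.15 to -0.19. Across the 12 arrays the clock mean correlated with the spiny neuron mean at r = 0.92 after removal of group means. The sources used here give no hour of tissue collection for single mice.

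Among opioid, stress peptide and endocannabinoid genes, Crh (corticotropin-releasing hormone) had the largest difference of any gene in these 35 lists. It ran from 8.04 through 9.26 to 9.85 in Ctrl and from 7.56 through 8.19 to 9.61 in CIE. The groups overlapped widely, and the change of -0.83 (SE 0.37, 95% interval -1.58 to -0.07) did not pass. It was -0.01 at 0 h, 0.29 at 8 h and -0.08 at 72 h. The other 23 members changed by -0.24 to 0.25.

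Most lists were close to 0, and over all genes at their brightest probeset 97.7% had a 95% interval within 1.5-fold. All 22 oxidative phosphorylation genes, 29 RNA splicing genes, 21 endoplasmic reticulum stress genes and 21 genes of ethanol metabolism and antioxidant defence were within it, as were the 17 clock genes and 19 microglia markers, with medians for the first 4 lists of -0.01, 0.01, -0.01 and -0.02. Of 29 chromatin genes, 28 did, at a median of 0.01. Cholesterol biosynthesis genes, with a mean change of 0.19 at 0 h and 0.16 at 8 h, had a mean of 0.01 at 7 d. Immediate early genes had a mean of -0.01 after -0.33 at 0 h, and 7 of 26 lay above 0. Genes of glutamate receptors, GABA and glycine receptors and ion channels had medians of -0.01, -0.04 and -0.02.

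**Figure D5:**
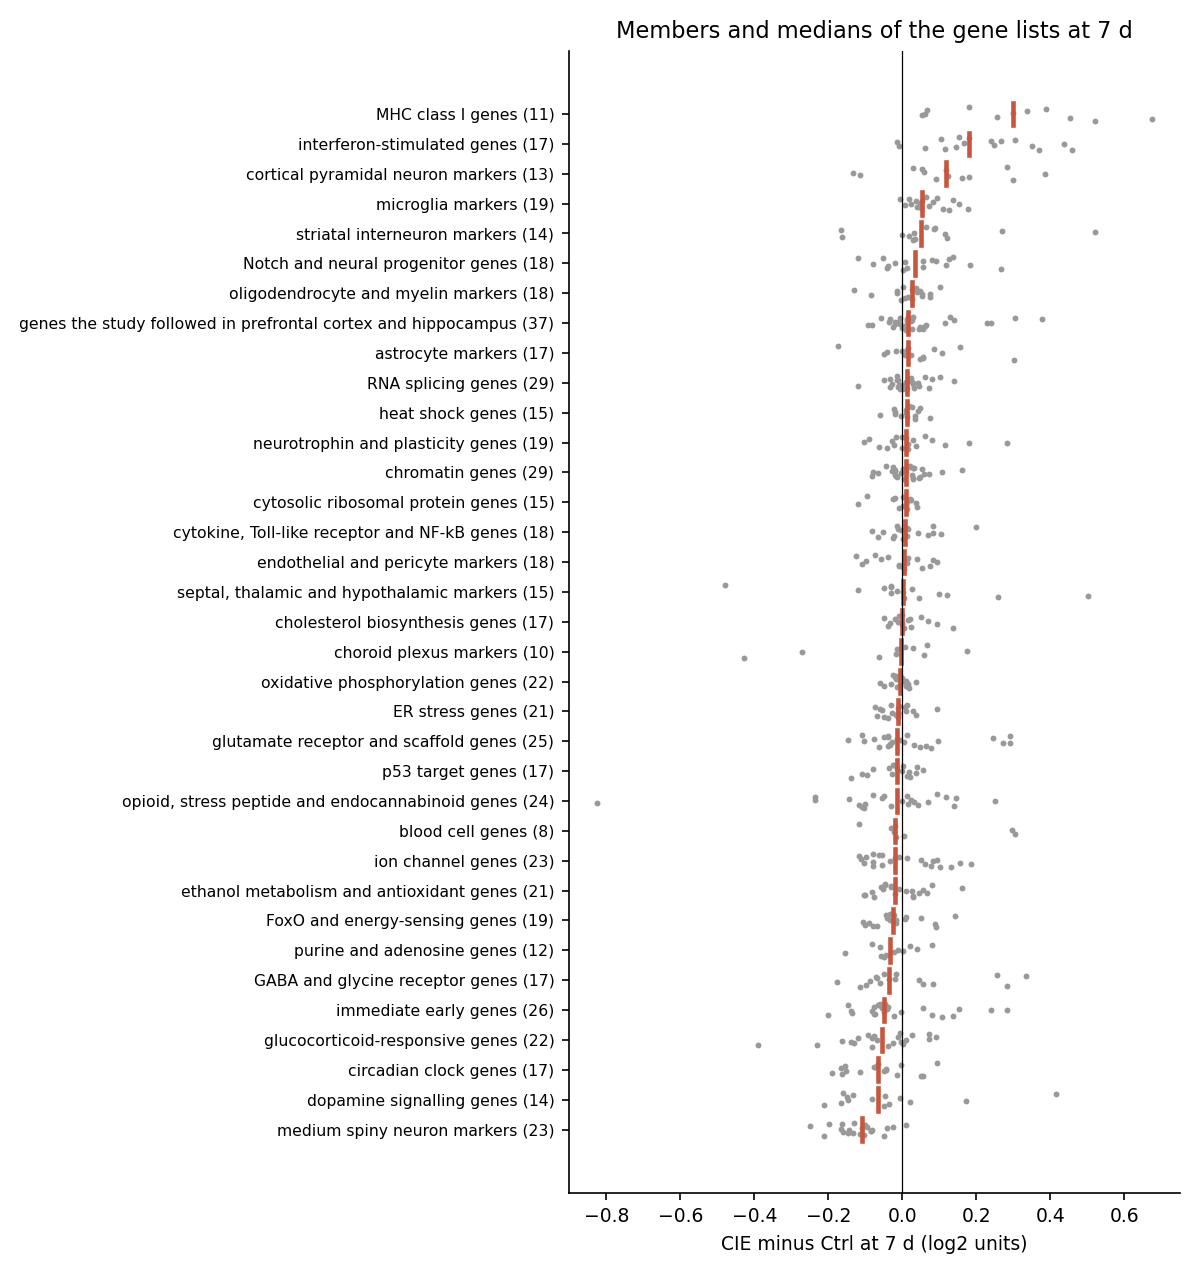
CIE minus Ctrl difference at 7 d (x axis, log2 units) of the members of 35 gene lists (grey points, 1 gene each at its brightest probeset; number of measured genes in brackets), with the median of each list as a red bar. Lists are ordered by their median, from MHC class I genes at 0.30 to medium spiny neuron markers at -0.11.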

How the data were processed

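RNA of 45 NAC samples was hybridized to Affymetrix whole-genome mouse expression arrays, 1 mouse per array. The deposited log2 values were made by the authors with RMA: background correction and quantile normalization within each hybridization group, quantile normalization over all arrays, then ComBat for the remaining group effects. ComBat can shrink differences between arrays hybridized apart. The version of RMA is not known here. No value was changed or filtered.

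Symbols came from the platform annotation (34945 probesets with 1 symbol, 932 with several, 9160 with none), positions from RefSeq GRCm38.p6. A linear model with 8 group means was fitted to all 45 arrays and 45037 probesets with limma 3.58.1 in R 4.3.3, with 40.3 degrees of freedom after moderation of the variances. Contrasts were CIE minus Ctrl at 7 d and its difference from the contrast at 0 h, 8 h and 72 h, each adjusted by Benjamini-Hochberg, with a threshold of 0.01. The fit was tested on simulated data. The p-values measure the spread between mice.

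Hybridization groups are not in the labels. Arrays sharing at least 5 equal values (tolerance 2e-08) were taken as 1 of 6 sets, each with 1 CIE and 1 Ctrl array at 7 d. Ctrl replicate 20 at 0 h fell in no set. As a block of its own, it did not count toward the 0 h difference in the fit with blocks.

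Genes named are the 8 higher and 8 lower with the smallest p, 30 early genes at their probeset of smallest p at 0 h or 8 h, and up to 3 members of smallest p and defining members of the lists. A few chosen after their values were seen are named as such. The members, the lists and the early genes were chosen with earlier results of these data known. The 35 lists held 685 genes, 633 of them measured with 1 symbol. Summaries used Python 3.11.15 with pandas 2.3.3, numpy 2.4.6 and scipy 1.17.1. Alternatives were another quantile normalization, median centring, trended robust variance, array weights, the 7 d arrays alone, sets as a block, subsets of probesets, adjustment over the 4 times together and leaving out each 7 d array.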

Additional observations from a re-analysis of the deposited data

Results flagged for a closer look

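Single arrays far from the other 5 of their group at 7 d were looked for among the named genes and list means, over 164 groups. A total of 25 were found, on 7 arrays, where chance gives about 1 in 20 groups. The genes and lists are not independent of each other. Ctrl replicate 62 was low in Gabrg3 (7.18), Fos (8.14), Nr2e1 (6.85) and Manf (10.30) and high in Zfand4 (8.61) and Firre (9.09). It was also high in the means of septal, thalamic and hypothalamic markers (7.05), FoxO and energy-sensing genes (9.64), MHC class I genes (8.32), cytokine, Toll-like receptor and NF-kB genes (6.86) and T and natural killer cell genes (5.72). CIE replicate 13 was high in Npas4 (8.29), Kif1b (8.45), Firre (9.14) and the mean of ribosomal protein genes (12.51). CIE replicate 27 was high in the interferon mean (7.25) and low in the splicing mean (11.66), and CIE replicate 7 was low in the glucocorticoid mean (9.39). Ctrl replicate 77 was high in Wdfy1 (4.12) and low in the means of cortical pyramidal neuron markers (7.75) and cholesterol genes (9.59). Ctrl replicate 80 was high in Egr1 (12.61) and the immediate early gene mean (8.91) and low in the oligodendrocyte mean (10.38), and Ctrl replicate 36 was low in Srsf6 (11.15).

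Changes that differed between 7 d and an earlier time, by the test of the difference itself in limma, were found in 12 of the 30 early genes. The 7 d change minus the 0 h change was -2.72 for Plin4, -1.29 for Zbtb16, -1.08 for Zfand4, -1.02 for Rprd2, -0.69 for Map3k6 and -0.64 for Hif3a. It was 1.247 for Fcrls, 0.998 for Hes5, 0.77 for Firre, 0.58 for Srsf6 and 0.66 for P2ry12. Against 8 h it was 1.40 for Hes5 and -0.97 for Xdh. Adjusted p of these 13 differences ran from 9.71e-06 to 0.00559.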

How the results depend on the processing

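The count of 0 probesets at an adjusted p of 0.01 or less at 7 d held under each alternative but array weights, which gave 1 (Gabrg3). At 0.05 or less the count of 0 became 1 with array weights, 1 without CIE replicate 13 and Ctrl replicate 62 together, 3 when adjusted over the 4 times together, and 0 to 1 when single 7 d arrays were left out. The share of probesets with an unadjusted p under 0.05, 2.34%, was 4.86% with array weights, 1.497% among probesets above the median level, and 1.94% to 3.83% when single arrays were left out. The highest value was without CIE replicate 13. The 90 calls against 0 h became 16 with the hybridization sets as a block and 53 with the brightest probeset of each gene. The 11 calls against 8 h became 18 with array weights, 7 with the block and 4 with the brightest probeset. Of the probesets called at 8 h, the 32.1% that kept their sign became 59.66% with array weights, 50.0% without CIE replicate 13 and Ctrl replicate 62, and 28.6% to 52.5% when single arrays were left out. Leaving out this pair, and the block within the 7 d arrays, were chosen after seeing the data. The cause of these shifts was not tested, apart from the smaller number of probesets tested where only some were kept. The 16 genes of smallest p kept their sign in 333 of 333 values, and the tests of early genes kept theirs in 255 of 255 and stayed past 0.01 in 238. Both groups of genes had been chosen from these same data, so the kept signs are no test of them. With the block, the differences of Plin4, Zbtb16, Zfand4, Map3k6, Hif3a, Hes5 (against 0 h), P2ry12 and Xdh missed 0.01, with adjusted p of 0.0101 to 0.0242. That of Xdh also missed it without CIE replicate 7 (adjusted p = 0.0102). No paired analysis by replicate number was possible because no number occurs in more than 1 group, so the inferred sets served as the block. Arrays have no count depth.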

Other observations

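Genes of T cells and natural killer cells were put in a list after the values of Cxcr6, Cd3g and Ccl5 had been seen, so its values are a description. Of 22 measured genes, 17 lay above 0 in CIE at 7 d, with a median change of 0.10, and 0 passed. Ccl5, a chemokine made by these cells, ran from 6.07 through 6.45 to 7.36 in Ctrl and from 6.36 through 7.51 to 8.39 in CIE, a change of 0.85 (SE 0.37). Cd3g, a chain of the T cell receptor complex, ran from 3.86 through 3.95 to 4.17 in Ctrl and from 4.03 through 4.52 to 4.84 in CIE. Ms4a4b, a membrane protein of T cells, ran from 3.58 through 4.12 to 4.15 in Ctrl and from 4.15 through 4.84 to 5.42 in CIE. Only for Cxcr6 and Ms4a4b of this list did the groups not overlap, 2 of 22 beside 0.151% of all probesets, and Cxcr6 had been seen before the list was made. Other genes of the same cells lay below 0, with Cd4 at -0.13 (SE 0.09) and Il2rb at -0.09 (SE 0.08). The mean of the 22 genes was higher in CIE in 6 of 6 hybridization sets, from 0.03 to 0.45, and 0.14 without CIE replicate 27. Across the 12 arrays, with group means removed, it correlated with the MHC class I mean at r = 0.80, as a description. At the other times the list mean changed by 0.04 at 0 h, 0.18 at 8 h and 0.14 at 72 h.

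Markers of septum, thalamus and hypothalamus, which lie near the NAC, showed single large differences in both directions without a shift of the list. Slc17a6, a vesicular glutamate transporter, changed by 0.50 (SE 0.40) and Calcr, the calcitonin receptor, by -0.48 (SE 0.42), and the list median was 0.00 over 15 genes. Calb2, calretinin, among the interneuron markers changed by 0.52 (SE 0.35), with 7.64 to 10.24 in Ctrl and 8.56 to 10.17 in CIE.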
